A study of Mus musculus with 20 samples.

Results

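Bipolar cells carry the photoreceptor signal to the inner retina, and the ON bipolar cells do so through the metabotropic glutamate receptor mGluR6. The values of 9 genes of this cell class were followed through 20 RNA-Seq libraries of whole mouse retina. They were Grm6, Trpm1, Nyx, Gpr179, Lrit3, Vsx1, Prkca, Pcp2 and Cabp5, chosen by gene symbol as ON bipolar signaling and bipolar identity genes. All 9 were listed in each deposited table, among 19368 genes in the OIR tables and 19102 genes in the injection tables. No member was called between Atf6-/- and Atf6+/+ OIR retinas, or between Ceapin-A7 and PBS retinas, at an adjusted p under 0.05 (limma, Benjamini-Hochberg over all genes tested).

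The retinas came from 4 groups with 5 libraries each. In oxygen-induced retinopathy (OIR), wildtype Atf6+/+ pups and Atf6-/- pups were kept with their mothers in 75% oxygen from P7 to P12, moved back to room air, and their retinas were taken at P17. The Atf6-/- allele is constitutive, acts in every cell, and carries a premature stop codon. The other groups were wildtype P30 mice not exposed to OIR, whose eyes were both injected into the vitreous with 1 µL of saline vehicle (PBS) or of 10 µM Ceapin-A7, a small molecule inhibitor of ATF6, and whose retinas were taken 24 h later. The labels give both injected groups the same range of solvent, while the methods give the control a higher share of dimethyl sulfoxide than the Ceapin-A7 solution, and the solvent and Ceapin-A7 cannot then be told apart. All mice were on the C57BL/6J background and both sexes were used. The sources give whole retinas as the sampled unit and do not say whether retinas of a group came from separate animals, so p-values measure the spread between these libraries.

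In darkness, photoreceptors release glutamate onto mGluR6 in the dendrites of ON bipolar cells, and the receptor acts through the G protein Go to close the cation channel TRPM1. Light lowers glutamate release, TRPM1 opens and the ON bipolar cell depolarizes, which gives rise to the b-wave of the electroretinogram. Nyctalopin and LRIT3 are leucine-rich repeat proteins needed to place TRPM1 at the dendritic tips, and GPR179 holds the RGS proteins that switch Go off. Loss of mGluR6, TRPM1, nyctalopin, LRIT3 or GPR179 causes congenital stationary night blindness. In whole retina, fewer bipolar cells and less RNA per bipolar cell cannot be told apart.

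Values are FPKM, fragments scaled by transcript length and by the number of mapped fragments, and are comparable between genes because they are per length. Sums of FPKM per library ranged from 410599 to 456250. Relative depth was read within each experiment from the value of 1 fragment in low genes. It was between 0.923 and 1.0 in 19 of the libraries and 0.688 in Ceapin-A7 replicate 3. Atf6 itself was at 14.6 to 16.1 FPKM in Atf6+/+ OIR and 13.6 to 16.8 FPKM in Atf6-/- OIR, so its level does not check the genotype. Retina markers were present in every group, with 5 rod markers summing to at least 12717 FPKM. Markers of neighboring tissues varied more. The sum of 7 lens markers was 0.390 to 0.900 FPKM in Atf6-/- OIR, 1.03 to 344 FPKM in Atf6+/+ OIR, 5.61 to 4496 FPKM in PBS and 69.6 to 8105 FPKM in Ceapin-A7, and no lens marker was at 0 in every library of a group. The sum of 5 retinal pigment epithelium markers was 9.18 to 76.1 FPKM in Atf6+/+ OIR and 37.4 to 251 FPKM in Atf6-/- OIR, against 97.0 to 209.7 FPKM in PBS and 35.01 to 148 FPKM in Ceapin-A7.

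The homeodomain factor OTX2, which is needed to form bipolar cells, had a high transcript level in these libraries (143 ± 10.8 FPKM in Atf6+/+ OIR, SD, n = 5). The 250 bases before each start of the members in RefSeq (GRCm38.p6, 13 windows for 9 genes) were therefore searched for TAATCC, the core letters bound by OTX2 and CRX, and for TAATTA, a homeodomain core. Both strands were read, and no match overlapped another. TAATCC was found in 2 of the 13 windows, in 6.25% of 32851 windows of the whole table, and in 5.32% of 15719 windows of genes tested. The Cabp5 window held 2 copies, 160 and 41 bases before the start, as did 0.295% of all windows. TAATTA was found in 1 window, of Pcp2, in 4.84% of all windows, and in 2.70% of those of genes tested. The 3 windows with a match are shown from 5′ to 3′ on the strand of the gene, with the matches in capitals. The Trpm1 window is that of its upstream start, where the match lies 34 bases before the start and is read on the opposite strand, and the Pcp2 match lies 101 bases before one of 4 starts. A match describes letters only. The authors aligned to GRCm39, and the coordinates are those of GRCm38.p6.
Cabp5, chr7:13397905-13398154, plus strand: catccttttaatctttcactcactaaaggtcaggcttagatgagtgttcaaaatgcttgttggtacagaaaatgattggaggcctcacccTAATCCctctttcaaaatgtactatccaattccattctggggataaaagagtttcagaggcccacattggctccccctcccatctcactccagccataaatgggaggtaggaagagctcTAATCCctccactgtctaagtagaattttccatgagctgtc
Trpm1, chr7:64153585-64153834, plus strand: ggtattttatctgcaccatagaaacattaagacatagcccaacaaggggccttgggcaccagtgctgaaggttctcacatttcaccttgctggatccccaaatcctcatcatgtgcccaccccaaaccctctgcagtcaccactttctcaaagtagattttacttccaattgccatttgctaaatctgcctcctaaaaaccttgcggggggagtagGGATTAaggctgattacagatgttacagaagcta
Pcp2, chr8:3625283-3625532, minus strand: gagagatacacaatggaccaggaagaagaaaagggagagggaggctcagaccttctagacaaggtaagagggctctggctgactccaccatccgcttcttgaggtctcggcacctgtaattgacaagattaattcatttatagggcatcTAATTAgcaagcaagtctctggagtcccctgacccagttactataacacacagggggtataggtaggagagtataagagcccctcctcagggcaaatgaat

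The members covered a wide range of levels, and their order was nearly the same in all 4 groups. Pcp2, which encodes a modulator of G proteins found in ON bipolar cells, was the highest, at 353 ± 54.4 FPKM in Atf6+/+ OIR (SD, n = 5), above 99.1% of the genes tested. Trpm1 came next at 66.2 ± 5.05 FPKM, overlapping with Grm6 in this group and not in the others. Grm6 (55.9 ± 8.16 FPKM), Cabp5 (47.5 ± 4.63 FPKM) and Prkca (44.7 ± 3.76 FPKM) followed, and the ranges of neighbors among these 3 overlapped. Lrit3 (29.6 ± 2.18 FPKM) and Gpr179 (27.5 ± 4.69 FPKM) overlapped with each other and lay below Prkca without overlap. Vsx1 (8.53 ± 0.419 FPKM) and Nyx (4.99 ± 0.607 FPKM) were the lowest, and each stood apart from its neighbors in every group. Nyx, which encodes nyctalopin, was thus an order of magnitude below the channel it helps to place, above 36.9% of the genes tested.

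One change of order separated the experiments. Grm6 had rank 3 in both OIR groups and rank 5 in both injected groups, behind Cabp5 and Prkca. In Ceapin-A7, Grm6 lay below Prkca without overlap, as all 5 libraries had more Prkca. In PBS the ranges of these genes overlapped, although 4 of 5 libraries had more Prkca than Grm6. The coefficient of variation of the members had a median of 9.73% in Atf6+/+ OIR, 9.501% in Atf6-/- OIR, 9.69% in PBS and 6.13% in Ceapin-A7.

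**Figure D1:**
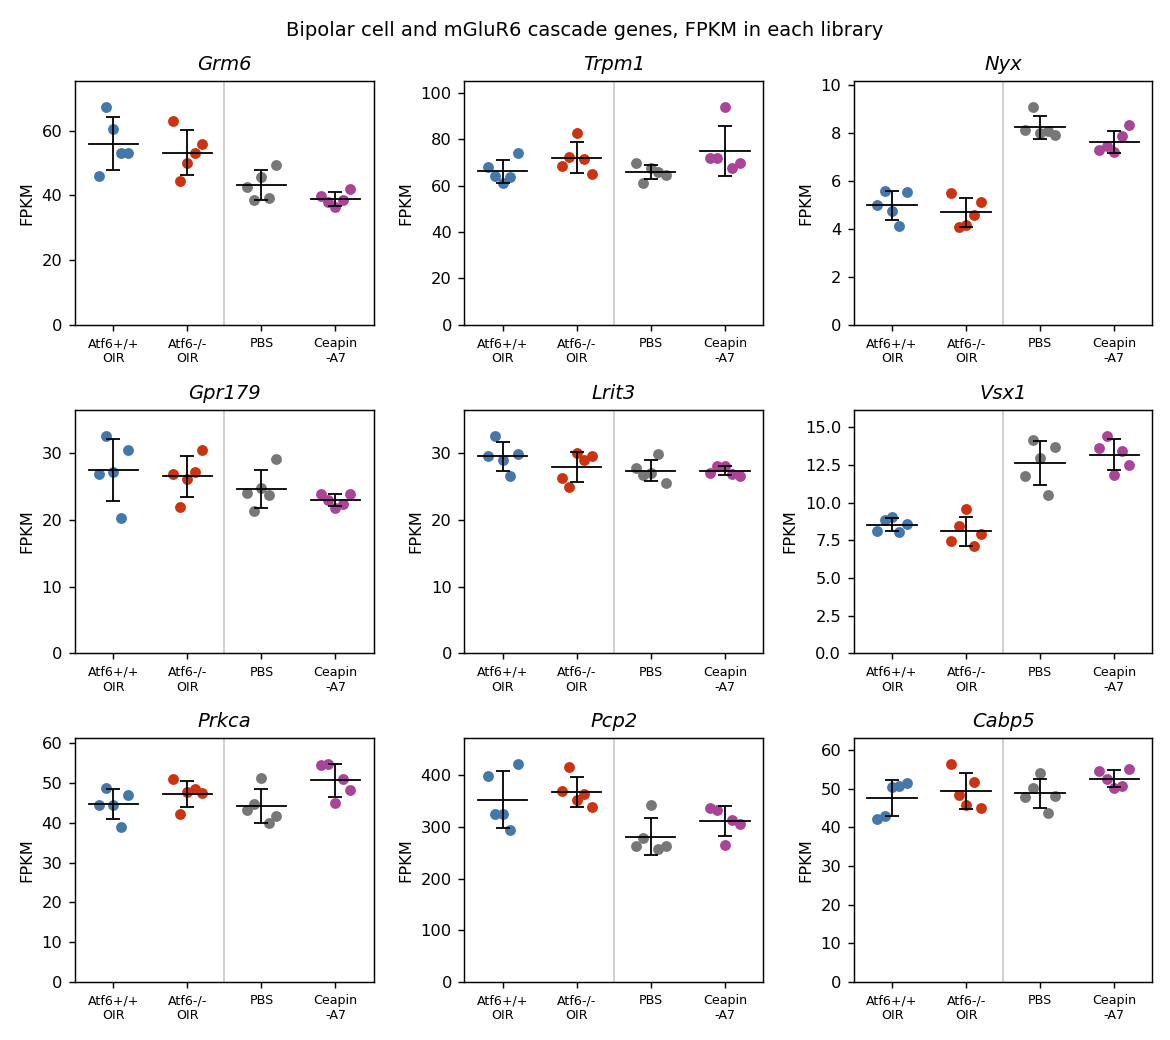
FPKM of the 9 genes (vertical axes from 0, a panel per gene) in each library of the 4 groups; points are libraries in order of replicate number, and black bars are the mean ± SD (n = 5). Nyx and Vsx1 lie higher in all injected P30 libraries than in all OIR P17 libraries, and within each experiment the groups overlap for every gene.

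The first comparison asked how loss of Atf6 bore on these genes at the peak of neovascularization in OIR. Of the 9 members, 4 were higher in Atf6-/- OIR, as were 50.7% of all genes, and 5 were lower, with a median log2 fold change of -0.03 against 0.00 over all 15704 genes tested. None passed an adjusted p under 0.05, where 0.0318% of all genes did (limma). None had an unadjusted p no higher than 0.05 either, where 12.7% of all genes did, and no member had groups without overlap, where 1.80% of all genes did. Adjusted p-values of the members ran from 0.426 to 0.939, and exact two-sided permutation p-values from 0.103 to 0.857, where 5 against 5 libraries can reach 0.00794.

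Grm6, the receptor at the head of the cascade, was measured at 45.9, 67.2, 60.5, 52.9 and 52.9 FPKM in Atf6+/+ OIR and at 62.9, 44.4, 49.9, 53.0 and 55.7 FPKM in Atf6-/- OIR. The lowest and the highest library of each group enclosed most of the other group. Its log2 fold change was -0.05 ± 0.12 (SE), a difference of -3.50% with a 95% interval of -18.9 to 14.9% (adjusted p = 0.841, limma). Trpm1 was measured at 68.1, 64.3, 61.1, 63.6 and 74.1 FPKM in Atf6+/+ OIR and at 68.7, 72.3, 82.8, 71.7 and 64.8 FPKM in Atf6-/- OIR. It had the largest difference of the members, 10.0% higher in Atf6-/- OIR (95% interval -1.63 to 23.1%, log2 fold change 0.14 ± 0.07 SE, adjusted p = 0.426, limma), and both groups still overlapped. Without Atf6+/+ OIR replicate 5, the log2 difference of Trpm1 was 0.19 with an unadjusted p of 0.0230 (limma), and it was above 0.05 when any other library was left out.

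For the transcripts of the proteins that assemble the cascade, all 3 means were slightly lower in Atf6-/- OIR and none was called. Nyx ranged from 4.11 to 5.59 FPKM in Atf6+/+ OIR and from 4.09 to 5.48 FPKM in Atf6-/- OIR, a difference of -4.86% (95% interval -21.0 to 14.6%). Lrit3 ranged from 26.6 to 32.7 FPKM and from 24.9 to 30.1 FPKM, a difference of -4.33% (-15.5 to 8.29%). Gpr179 ranged from 20.3 to 32.7 FPKM and from 21.97 to 30.6 FPKM, a difference of -1.73% (-20.0 to 20.7%). The intervals of Nyx and Gpr179 were wider than that of Lrit3, whose libraries were closer together.

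The identity genes split by direction. Vsx1, a homeobox gene of a subset of cone bipolar cells, was at 8.53 ± 0.419 FPKM in Atf6+/+ OIR and 8.10 ± 0.962 FPKM in Atf6-/- OIR (SD, n = 5), with an interval of -15.6 to 8.46% for the difference. Prkca, the protein kinase C alpha gene used to mark rod bipolar cells, was 7.29% higher in Atf6-/- OIR (-5.34 to 21.6%). Pcp2 was 6.22% higher (-9.72 to 24.97%), and Cabp5, a calcium-binding protein gene of rod bipolar and some cone bipolar cells, was 5.33% higher (-6.50 to 18.7%). All of these intervals include 0. Across all genes, the log2 fold change in OIR was lower the higher the transcript GC (rho by Spearman -0.46 across genes, which are not independent replicates). With that trend removed, Grm6 was at 0.02 and Gpr179 at 0.07 on the log2 scale, both with their sign turned, and still no member was called.

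The second comparison asked how these genes stood 24 h after Ceapin-A7. Of the 9 members, 6 were higher, as were 50.3% of all genes, and 3 were lower, with a median log2 fold change of 0.07 against 0.00 over all 15408 genes tested. No member and no other gene passed an adjusted p under 0.05 (limma, 0% of genes). At an unadjusted p no higher than 0.05, 2 of the 9 were called, Prkca and Trpm1, both higher, where 10.4% of all genes were called and 5.04% were called and higher. Of all genes called in this way, 48.7% were higher, and 26.8% were when FPKM were rescaled to an equal sum per library (TPM). No member had groups without overlap, where 1.47% of all genes did.

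Prkca was measured at 43.1, 44.7, 51.2, 40.0 and 41.8 FPKM in PBS and at 54.6, 54.8, 45.1, 51.1 and 48.2 FPKM in Ceapin-A7. PBS replicate 3 lay among the Ceapin-A7 libraries, and the other PBS libraries lay below all of them. The difference was 15.0% (95% interval 2.02 to 29.6%, log2 fold change 0.20 ± 0.08 SE, adjusted p = 0.472, limma), with an exact permutation p of 0.0635. Its unadjusted p, 0.0260, stayed no higher than 0.05 in 6 of 10 fits that left out 1 library and did not without PBS replicate 4 or 5 or without Ceapin-A7 replicate 1 or 2 (highest p 0.0668, limma).

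Trpm1 was measured at 69.7, 61.3, 67.6, 65.8 and 64.8 FPKM in PBS and at 71.9, 71.8, 93.9, 67.6 and 69.7 FPKM in Ceapin-A7. One library carried much of the difference, Ceapin-A7 replicate 3, which was also the shallowest of the injected libraries. With it, Trpm1 was 13.1% higher (95% interval 0.0245 to 27.9%, log2 fold change 0.18 ± 0.08 SE, adjusted p = 0.481, limma, exact permutation p = 0.0397). Without it, the log2 fold change was 0.09 with an unadjusted p of 0.0699 (limma). The unadjusted p of Trpm1 stayed no higher than 0.05 in 3 of 10 such fits, those without PBS replicate 1 or Ceapin-A7 replicate 4 or 5.

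Grm6 pointed the other way. It was measured at 42.7, 38.6, 45.7, 39.0 and 49.5 FPKM in PBS and at 39.9, 37.9, 36.4, 38.5 and 42.1 FPKM in Ceapin-A7. Ceapin-A7 replicates 2, 3 and 4 lay below every PBS library, and replicates 1 and 5 lay within the PBS range. The difference was -9.29% (95% interval -18.1 to 0.455%, adjusted p = 0.488, limma, exact permutation p = 0.0952). The unadjusted p of Grm6, 0.0593, fell to 0.05 or less in 3 of 10 fits that left out 1 library (lowest p 0.0176, limma). Nyx was at 8.11, 9.08, 8, 8.07 and 7.91 FPKM in PBS and at 7.31, 7.45, 7.20, 7.89 and 8.33 FPKM in Ceapin-A7, a difference of -7.18% (-15.4 to 1.86%). Only 1 Ceapin-A7 library, replicate 5, had more Nyx than the lowest PBS library. Gpr179 ranged from 21.4 to 29.2 FPKM in PBS and from 21.9 to 23.97 FPKM in Ceapin-A7, a difference of -6.15% (-15.1 to 3.75%). Lrit3 had the smallest difference of the members, at 27.4 ± 1.61 FPKM in PBS and 27.4 ± 0.671 FPKM in Ceapin-A7 (SD, n = 5). Its interval was -6.44 to 7.00%, and its direction turned with scaling (log2 fold change 0.00, and -0.04 after TPM rescaling).

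Among the other identity genes, Pcp2 was at 263, 278, 343, 258 and 262 FPKM in PBS and at 337, 333, 265, 313 and 306 FPKM in Ceapin-A7. The picture was close to that of Prkca, with PBS replicate 3 high in its group and Ceapin-A7 replicate 3 low in its own, and the difference was 10.9% (-3.84 to 28.0%, adjusted p = 0.556, limma). Cabp5 was 7.99% higher (-1.52 to 18.4%), and Vsx1 was 4.67% higher (-8.54 to 19.8%). Markers of some other cell types also had log2 fold changes mostly above 0 in this comparison, and those of others did not. All 5 rod markers had a log2 fold change above 0 (median 0.21, 1 at an unadjusted p no higher than 0.05), as had all 5 cone markers (median 0.23, 3 at that threshold), 4 of 5 Müller glia markers (median 0.27, highest 0.85, 1 at that threshold) and 4 of 5 microglia markers (median 0.22, highest 0.75, 1 at that threshold), where 10.4% of all genes reached it in either direction. Above 0 were also 3 of 3 horizontal cell, 4 of 6 retinal ganglion cell and 7 of 7 lens markers. Fewer were above 0 among amacrine (2 of 5, median -0.01) and endothelial markers (1 of 5, median -0.12). Only 1 of 5 retinal pigment epithelium markers was above 0 (median -0.85), and 2 were lower at that threshold. None passed the adjusted threshold (limma). In OIR, too, all 5 rod markers were above 0 (median 0.10, 1 at that threshold), where 12.7% of all genes reached it. So were all 5 cone markers (median 0.11, 2 at that threshold). Most Müller glia (4 of 5), ganglion cell (4 of 6), horizontal cell (2 of 3) and pigment epithelium markers (4 of 5) were too. Fewer were among amacrine (1 of 5, median -0.05) and microglia markers (1 of 5, median -0.09). All 5 endothelial markers (median -0.21, 1 at that threshold) and all 6 lens markers tested (median -4.19, 5 at that threshold) were lower. The pigment epithelium markers had a median of 1.76, with 4 higher at that threshold. The summed rod markers ranged from 12717 to 19390 FPKM in PBS and from 17721 to 18880 FPKM in Ceapin-A7, and the summed cone markers from 681 to 974 FPKM and from 897 to 1030 FPKM. Their part in the values of Prkca and Trpm1 was not tested.

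**Figure D2:**
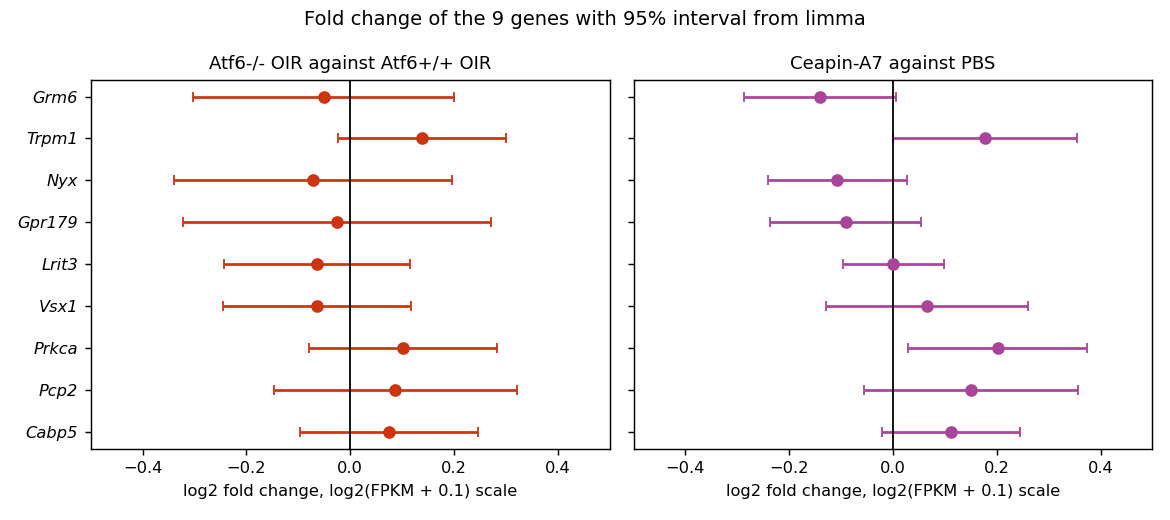
Log2 fold change of each gene (points, log2(FPKM + 0.1) scale) with its 95% interval from limma, for Atf6-/- against Atf6+/+ OIR (left) and Ceapin-A7 against PBS (right), 5 against 5 libraries each. All intervals on the left include 0; on the right those of Prkca (0.03 to 0.37) and Trpm1 (0.00 to 0.36) lie above 0, before adjustment for the number of genes.

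The difference between both contrasts was tested in a fit of all 20 libraries. No member passed an adjusted p under 0.05, where 0.032% of 15628 genes did, and none had an unadjusted p no higher than 0.05, where 9.19% did. The lowest adjusted p was 0.768, for Vsx1, whose log2 fold change was 0.13 ± 0.12 (SE) higher after Ceapin-A7 than with loss of Atf6. The intervals of the difference reached from -24.1% to 30.9% over the 9 genes. The contrasts also differ in age, in oxygen history and in injection.

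The other members were also set against Grm6 within the same library. This ratio was chosen after the values were seen, with Grm6 lower in Ceapin-A7, so it is a description that carries the lower Grm6 in every value. After Ceapin-A7 all 8 mean ratios were higher, also those of Nyx (0.193 and 0.196) and Gpr179 (0.572 and 0.592), whose own FPKM were lower. Trpm1 was at 1.21 ± 0.231 times the Grm6 FPKM in Atf6+/+ OIR, 1.38 ± 0.260 in Atf6-/- OIR, 1.54 ± 0.149 in PBS and 1.94 ± 0.368 in Ceapin-A7 (SD, n = 5). In Ceapin-A7 the ratio ranged from 1.66 to 2.58, and in PBS from 1.31 to 1.69, so the groups overlapped narrowly. Cabp5 was at 0.973 to 1.30 times Grm6 in PBS and at 1.31 to 1.38 times Grm6 in Ceapin-A7, without overlap. Prkca was at 0.846 to 1.16 and at 1.15 to 1.44 times Grm6, with a narrow overlap. Cabp5 was the 1 member of 8 whose ratio did not overlap, where 2.36% of all genes had a higher ratio without overlap, and 84.1% of all genes had a higher mean ratio to Grm6 in Ceapin-A7. In OIR, no member ratio was without overlap, where 0.267% of all genes were higher and 0.159% lower. Nyx, Lrit3 and Gpr179 kept mean ratios to Grm6 of 0.0904 and 0.0882, 0.536 and 0.532, and 0.497 and 0.501 in Atf6+/+ and Atf6-/- OIR.

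Side by side, the control groups differed in the levels of some of these genes. PBS retinas at P30 had 8.23 ± 0.479 FPKM of Nyx, and Atf6+/+ OIR retinas at P17 had 4.99 ± 0.607 FPKM (SD, n = 5), a ratio of 1.65. Vsx1 was at 12.6 ± 1.49 FPKM and 8.53 ± 0.419 FPKM, a ratio of 1.48. For both genes, all 10 injected libraries lay above all 10 OIR libraries. Grm6 (ratio 0.771) and Pcp2 (ratio 0.796) were lower in PBS with overlap, and the ratios of the other members lay between 0.895 and 1.03, also with overlap. So 2 of the 9 members had control groups without overlap, both higher in PBS, where 40.4% of 15631 genes had and 19.9% were higher in PBS. Over 10 against 10 libraries, 14.5% of genes were higher without overlap. The tables of these experiments were quantified apart, no level was tested across them, and age, oxygen and injection cannot be told apart.

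Some libraries were extreme in several members at once, and the members did not all vary together. Of the 36 pairs of members, 28 had within-group deviations with a positive Pearson correlation over the 20 libraries, and 18 had correlations of opposite sign in the OIR and in the injected libraries. The libraries named here were chosen after their values were seen. In Atf6+/+ OIR replicate 4, 6 of the 9 members were at the lowest value of their group (Nyx, Gpr179, Lrit3, Vsx1, Prkca and Pcp2), where 25.9% of all genes were, and Gpr179 was 20.3 FPKM there against 26.9 to 32.7 FPKM in the other libraries. Replicate 2 of that group was the highest for Grm6, Nyx, Gpr179, Lrit3 and Prkca, where it was the highest for 16.4% of all genes. In Atf6-/- OIR replicate 2, 5 members were at their lowest (Grm6, Nyx, Gpr179, Lrit3 and Prkca), where 14.0% of all genes were. These 2 libraries with low values had the highest FPKM sums of the series, 454842 and 456250. In FPKM, Ceapin-A7 replicate 3 was extreme for every member. It was the lowest of its group for 7 (20.6% of all genes) and the highest for Trpm1 and Lrit3 (24% of all genes). Its Lrit3 was 28.15 FPKM against 28.05 FPKM in replicate 2, and on rescaled values replicate 2 was higher (log2 deviation 0.0451 against 0.0323). The FPKM sum of Ceapin-A7 replicate 3, 427856, was within the range of the others, and its relative depth was the lowest. The part of either in these values was not tested.

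**Figure D3:**
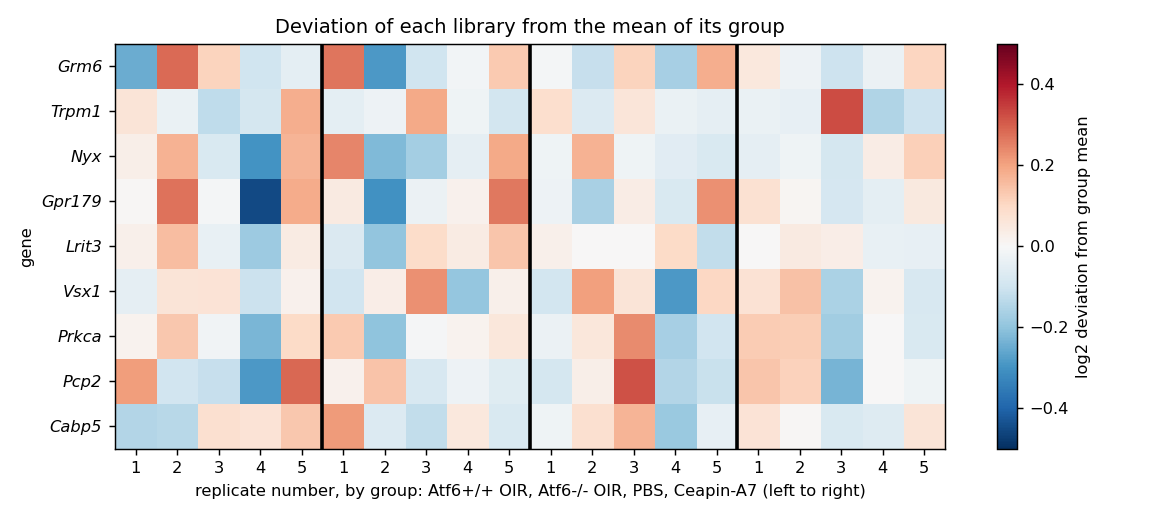
Log2 deviation of each gene (rows) in each library (columns, by group and replicate number) from the mean of its group; red is above and blue below. Columns of 1 color show libraries in which several members moved together, such as Atf6+/+ OIR replicate 4 with a mean deviation of -0.19 over the 9 genes and Atf6-/- OIR replicate 2 with -0.13, and Ceapin-A7 replicate 3 stands out for a high Trpm1 beside low values of most other members.

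Among 12988 other genes, the 5 whose deviations followed the mean deviation of the members most closely over the 20 libraries were Snap91 (Pearson r = 0.905), Ptch1 (0.901), Arhgef26 (0.896), Tnfaip3 (0.894) and Caskin1 (0.876). Snap91 encodes a clathrin adaptor of synapses, Ptch1 the hedgehog receptor and Tnfaip3 an inhibitor of NF-kB signaling. These values describe likeness across libraries that differed in relative depth (0.688 to 1.0), and the 5 were picked as the extremes of all genes. The part of depth and of base composition in this likeness was not tested.

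Partners of the cascade were then counted in 4 lists of 51 genes, all of them tested. None passed the adjusted threshold in either experiment (lowest adjusted p 0.358 in OIR and 0.472 after Ceapin-A7, limma). At an unadjusted p no higher than 0.05, 8 of the 51 were called in OIR and 5 after Ceapin-A7, beside 12.7% and 10.4% of all genes. Groups did not overlap for 3 of the 51 in OIR and for 1 after Ceapin-A7, beside 1.80% and 1.47% of all genes.

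The list of cascade partners holds the Go subunits, the RGS proteins that end the signal and further synaptic proteins. In OIR, 6 of its 10 genes were higher, with a median log2 fold change of 0.05, and 3 had an unadjusted p no higher than 0.05. Gnb5, the Gβ5 subunit that stabilizes RGS7 and RGS11, was at 257 to 316 FPKM in Atf6+/+ OIR and 295 to 382 FPKM in Atf6-/- OIR. On rescaled values these groups did not overlap, and the log2 fold change was 0.29 ± 0.08 (SE, unadjusted p = 0.00216, adjusted p = 0.358, limma). Its RGS partners had differences of opposite sign. Rgs7 was at 20.8 ± 2.92 FPKM and 24.7 ± 2.49 FPKM (log2 fold change 0.27), and Rgs11 was at 70.4 ± 5.78 FPKM and 61.0 ± 3.34 FPKM (log2 fold change -0.19, adjusted p = 0.358 for both, limma). After Ceapin-A7, none of the 10 reached an unadjusted p of 0.05, and the log2 fold changes of Gnb5, Rgs7 and Rgs11 were 0.08, 0.02 and 0.00. The most abundant partners, Gng13 (321 ± 31.9 FPKM in Atf6+/+ OIR) and Gnb3 (344 ± 62.6 FPKM), which encode the γ and β subunits of the bipolar cell G protein, had log2 fold changes of 0.11 and -0.18 in OIR and of 0.10 and -0.24 after Ceapin-A7.

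Of 14 bipolar transcription factors, 6 were higher in OIR (median log2 fold change -0.04) and 3 had an unadjusted p no higher than 0.05. Fezf2 was at 8 to 9.42 FPKM in Atf6+/+ OIR and at 6.83 to 7.87 FPKM in Atf6-/- OIR, without overlap (log2 fold change -0.22 ± 0.07 SE, adjusted p = 0.360, limma). Neurod4 (0.23) and Isl1 (0.18), the latter a LIM homeobox gene of ON bipolar cells, had higher means in Atf6-/- OIR. After Ceapin-A7, Prdm8, which is needed for rod bipolar cells, was at 27.5 ± 3.24 FPKM in PBS and 23.3 ± 1.36 FPKM in Ceapin-A7 (log2 fold change -0.23, adjusted p = 0.472, limma), the 1 factor at that threshold. Otx2 had a log2 fold change of 0.09 in OIR and of -0.04 after Ceapin-A7.

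Of 19 subtype and synapse genes, 2 were lower in OIR at an unadjusted p no higher than 0.05. Cabp2, a calcium-binding protein gene related to Cabp5, was at 13.0 to 14.5 FPKM in Atf6+/+ OIR and at 11.7 to 12.3 FPKM in Atf6-/- OIR, without overlap (log2 fold change -0.16 ± 0.06 SE, adjusted p = 0.362, limma). Kcng4, a potassium channel subunit gene that marks a cone bipolar type, stood at -0.31 on the log2 scale of fold change (adjusted p = 0.371, limma). After Ceapin-A7, Grik1, the kainate receptor gene of OFF bipolar cells, was at 37.6 to 44.8 FPKM in PBS and at 33.2 to 36.7 FPKM in Ceapin-A7, without overlap (log2 fold change -0.19 ± 0.05 SE, adjusted p = 0.472, limma). Cck was at 20.1 ± 0.773 FPKM and 22.3 ± 1.68 FPKM (log2 fold change 0.14). Scgn and Gabrr1, the most abundant of the list, had log2 fold changes between 0.02 and 0.10 in both experiments.

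On the photoreceptor side of the synapse, none of 8 genes reached an unadjusted p of 0.05 in OIR (median log2 fold change -0.02), and 2 did after Ceapin-A7, both lower (median -0.06). Elfn1, the rod protein that binds mGluR6 across the cleft, was at 13.5 to 25.2 FPKM in PBS and at 14.5 to 16.7 FPKM in Ceapin-A7 (log2 fold change -0.34 ± 0.13 SE, adjusted p = 0.472, limma). The spread in PBS was wide and enclosed all Ceapin-A7 libraries. Cacna2d4, a calcium channel subunit gene of photoreceptor terminals, was at 87.6 ± 7.43 FPKM and 79.0 ± 4.85 FPKM (log2 fold change -0.15), and Cabp4, the most abundant gene of the list, had a log2 fold change of 0.08.

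**Figure D4:**
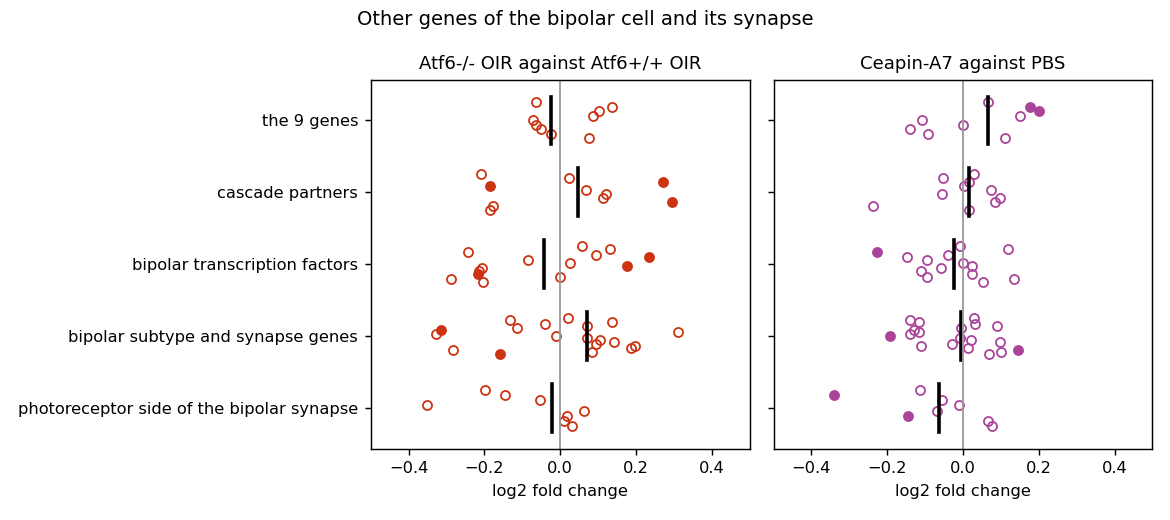
Log2 fold change of each gene (points) in Atf6-/- against Atf6+/+ OIR (left) and Ceapin-A7 against PBS (right) for the 9 genes and 4 lists of partners; filled points have an unadjusted p no higher than 0.05 (limma) and black bars are list medians. All medians lie between -0.06 and 0.07, and the filled points fall on both sides of 0.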

How the data were processed

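Stranded mRNA libraries of 20 retinas were sequenced by the authors as paired-end reads, aligned with HISAT2 (v2.0.4) to GRCm39 and quantified by RSEM (v1.2.18). The deposited FPKM, given by the authors to 2 decimals, were used; their DESeq2 (v1.4.5) columns of fold changes and p-values were not. FPKM are not counts, so no count model or counting interval was computed.

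In each experiment each library's FPKM were scaled by median-of-ratios factors (0.946 to 1.04 in OIR, 0.980 to 1.02 after injection), 0.1 was added as a pseudocount, and genes whose mean FPKM exceeded 0.1 were tested on the log2 scale in limma (version 3.58.1, eBayes with trend, R 4.3.3). Benjamini-Hochberg adjustment ran over the whole set of tested genes. Such fold changes understate those of low genes. Fits were tested on simulated data with 2-fold changes in 200 genes, of which 94% were recovered in each experiment. Changes as small as those of the members were not simulated. Exact permutation tests were two-sided. Overlap between the groups of an experiment was judged on rescaled values. Overlap between members, between the control groups, between injected and OIR libraries, and of ratios to Grm6 was judged on FPKM as deposited. Relative depth rested on 31 to 55 genes per library.

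Members and lists were chosen with earlier results of these data known. Named partners are those with an unadjusted p no higher than 0.05, at most 4 per list and contrast, and the 2 most abundant of each list, of which 1 gene is not reported here. Genes were matched by symbol, also to RefSeq promoters and to the GC content of transcripts (97.0% of genes tested in OIR and 97.1% after injection). Alternatives were other pseudocounts, filters and scalings, no trend, array weights, all 20 libraries, a replicate block, a GC correction, and leaving out markers or single libraries.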

Additional observations from a re-analysis of the deposited data

Results flagged for a closer look

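Of 36 sets of a gene and a group (9 genes, 4 groups of 5 libraries), 3 had a library far from the others by Dixon's criterion, where chance gives about 5% of sets. All 3 were the highest of their group. Trpm1 was at 93.89 FPKM in Ceapin-A7 replicate 3, with the other libraries at 67.6 to 71.9 FPKM, and this library had a relative depth of 0.688. Nyx was at 9.08 FPKM in PBS replicate 2, with the others at 7.91 to 8.11 FPKM. Pcp2 was at 343.45 FPKM in PBS replicate 3, with the others at 258 to 278 FPKM. Pcp2 in that library lay above every Ceapin-A7 library, and without it the log2 difference between Ceapin-A7 and PBS was 0.23 with an unadjusted p of 0.0119 (limma).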

How the results depend on the processing

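No member passed an adjusted p under 0.05 in any comparison under any alternative that was run. After Ceapin-A7, the count of members at an unadjusted p no higher than 0.05 was 2, and it was 1 with a pseudocount of 1, without the filter, with a mean FPKM above 1, without the trend and with the GC correction, 0 with array weights, and 0 to 3 when 1 library was left out; in OIR it was 0, and 0 to 1 when 1 library was left out. The genes behind the count after Ceapin-A7 also changed. With all libraries kept, the lowest unadjusted p over the alternatives was 0.0272 for Grm6 and 0.0307 for Nyx (limma). Both were lower after Ceapin-A7 in each of these (log2 fold change -0.18 to -0.13 and -0.15 to -0.092). The highest unadjusted p was 0.133 for Trpm1 and 0.0508 for Prkca (limma). Array weights raised the genes called at an adjusted p under 0.05 from 5 to 2769 in OIR and from 5 to 744 for the difference between contrasts. Calls at an unadjusted p were higher in 54.4% of cases in OIR, 30.5% with FPKM as deposited and 31.0% with TPM; for the difference between contrasts they were so in 41.3% and, as deposited, 60.2%.

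Signs turned for Grm6 (0.018) and Gpr179 (0.072) in OIR with the GC correction and for Lrit3 after Ceapin-A7 (-0.038 with TPM, -0.013 with array weights, -0.00072 in the fit of 20 libraries and -0.0047 with the GC correction). In the difference between contrasts they turned with array weights for Trpm1 (-0.033), Nyx (0.095) and Gpr179 (0.084), and with the GC correction for Pcp2 (-0.015). With 1 library left out, log2 fold changes ranged in OIR from -0.12 to 0.020 for Grm6 and from -0.14 to 0.050 for Gpr179, after Ceapin-A7 from -0.031 to 0.026 for Lrit3 and from -0.0038 to 0.12 for Vsx1, and in the difference between contrasts from -0.044 to 0.084 for Trpm1, -0.093 to 0.037 for Nyx, -0.14 to 0.044 for Gpr179, -0.012 to 0.14 for Pcp2 and -0.013 to 0.087 for Cabp5. The cause was not tested.

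Replicate numbers did not pair the libraries: the correlations of same-numbered libraries ranged from -0.26 to 0.21 in OIR and from -0.22 to 0.31 after injection. In OIR no replicate correlated best with its own number, and after injection only replicate 1 did. With the replicate number as a block (a replicate block), the median log2 fold change of the members kept its value in both experiments (-0.025 in OIR and 0.066 after Ceapin-A7), 0 members in OIR and 3 after Ceapin-A7 had an unadjusted p no higher than 0.05, and 1969 genes in OIR and 1606 after Ceapin-A7 did among all genes, against 2002 and 1595 without it, and no call of a member at the adjusted threshold changed.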
